A study of Mus musculus with 4 samples.

Results

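Undifferentiated spermatogonia of the P15 mouse testis were described here gene by gene and by *Meioc* genotype. The cells were selected on their own counts from barcodes with more than 1000 detected genes and less than 10% of UMIs (unique molecular identifiers, 1 per captured transcript) from the mitochondrial genome. A cell was included when it held at least 3 UMIs of the germ cell genes *Ddx4* and *Dazl* together, at least 2 UMIs of *Gfra1* and *Ret* together, and a UMI of at least 4 of the 6 genes *Gfra1*, *Ret*, *Upp1*, *Etv5*, *Id4* and *Zbtb16*. Of 29592 cells that passed the quality limits, 23584 met the germ cell condition and 1062 met all conditions. They came to 219 and 263 cells in the wild-type libraries (replicates 1 and 2) and 298 and 282 cells in the *Meioc*-null libraries (replicates 1 and 2). Values below follow this order of libraries.

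Single-cell 3′ RNA libraries (10x Genomics Chromium) were made from 1 testis of each of 4 pups at postnatal day 15, 2 wild type and 2 homozygous for the *Meioc* null allele tm1.1Dpc, on a C57BL/6N background. Each replicate number was a batch, which the labels describe as a pair of littermates of both genotypes. Per the study's methods, pups of both genotypes also carried 1 copy of the *Hspa2* tm1Dix allele and were homozygous for a *ROSA26* tdTomato reporter whose stop cassette was intact. MEIOC is a germ cell protein required for meiotic prophase, and the comparison between genotypes asked whether cells that precede the mitosis-to-meiosis transition already differed without it.

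Undifferentiated spermatogonia hold the stem cells of spermatogenesis. Sertoli cells and other somatic cells release GDNF, which binds the receptor GFRA1 and signals through the tyrosine kinase RET, and this signal maintains self-renewal through transcription factors such as ETV5, BCL6B and LHX1. The cells later pass through a progenitor state, respond to retinoic acid with *Stra8* and *Kit*, and become differentiating spermatogonia, the population that goes on to enter meiosis.

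The libraries held 11986 to 16486 barcodes and 158291903 to 190455307 UMIs, and any pair of libraries shared 45 to 73 barcode sequences. Undifferentiated spermatogonia were deeper than the other germ cells, with medians of 27717, 27662, 25191.5 and 33250.5 UMIs per cell against 15409, 14806, 12615.5 and 16097. The selection asked for UMIs of several genes and so favoured deep cells, and its part in this gap was not tested. The median mitochondrial share of undifferentiated spermatogonia was 6.54 to 7.09% of UMIs. A class of Sertoli-like cells served as a measure of free RNA and had medians of 4631 to 7799 UMIs. These cells held at least 3 of 6 Sertoli markers and under 3 UMIs of *Ddx4* and *Dazl* together. That limit left out cells with more free germ cell RNA, so the class may understate free RNA from germ cells. *Meioc* itself (chr11:102663716-102682237, plus strand) stood at 24.6, 33.1, 29.2 and 30.8 counts per 1000000 UMIs (CPM) in undifferentiated spermatogonia. The sources used here do not give which part was deleted, and 3′ tags outside it would still be counted, so this level was no check of the labels.

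The 6 selection genes are given as a description, because their values chose the cells. *Gfra1* (the GDNF co-receptor, chr19:58235604-58455909 of GRCm38, minus strand) was found in 83.1, 84.4, 88.9 and 85.8% of the cells, and *Ret* (chr6:118151745-118197718, minus strand) in 96.8, 95.1, 94.0 and 93.6%. *Zbtb16*, which encodes the zinc finger repressor PLZF, had a UMI in 95.1 to 99.1% of cells. *Id4*, an inhibitor of bHLH factors that marks stem cells, had one in 76.8 to 85.9%, and the GDNF target *Etv5* in 71.6 to 76.8%. *Upp1*, uridine phosphorylase, was the least frequent of the 6, at 45.2 to 51.8%. In all, 362 cells had 4 of the 6 genes, 527 had 5 and 173 had all 6. Just outside the limits lay 203 cells with 3 of the genes and 248 cells with 1 UMI of *Gfra1* and *Ret* together, and 199 of the selected cells held exactly 2 such UMIs.

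Genes outside the selection carried the same cell identity, which is a description and was not tested, since every gene of a cell selected this way follows the selection. Among 8466 genes detected in 25% or more of the cells, 663 had a CPM more than 2-fold that of the other germ cells in all 4 libraries, 208 more than 4-fold, and 331 stood below 0.5 of it in all 4. This limit on detection was set on the selected cells alone. Genes rarely detected in them but high in other germ cells could not enter, so the balance of these counts is partly fixed. The neurofilament gene *Nefm* had a ratio of 49.0 to 79.2 across libraries, the transcription factor *Lhx1* 47.4 to 60.7 and the forkhead factor *Foxc2* 35.6 to 55.9. *Tcl1*, an AKT co-activator, reached 31.5 to 51.3, the Wnt agonist *Rspo2* 20.6 to 28.3, and *Fst*, which encodes the activin antagonist follistatin, 14.2 to 18.4. At the other end of these 8466 genes, *Meioc* stood at 0.0814 to 0.114 of its level in other germ cells, and *Kit* at 0.175 to 0.251. The ratio also depends on the level in the other germ cells. *Id4* had ratios of 2.07, 2.68, 13.1 and 15.4 by library, and its CPM in the other germ cells was 38.0, 33.8, 4.89 and 4.75, a gap in which their makeup and a genotype effect cannot be told apart.

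**Figure D1:**
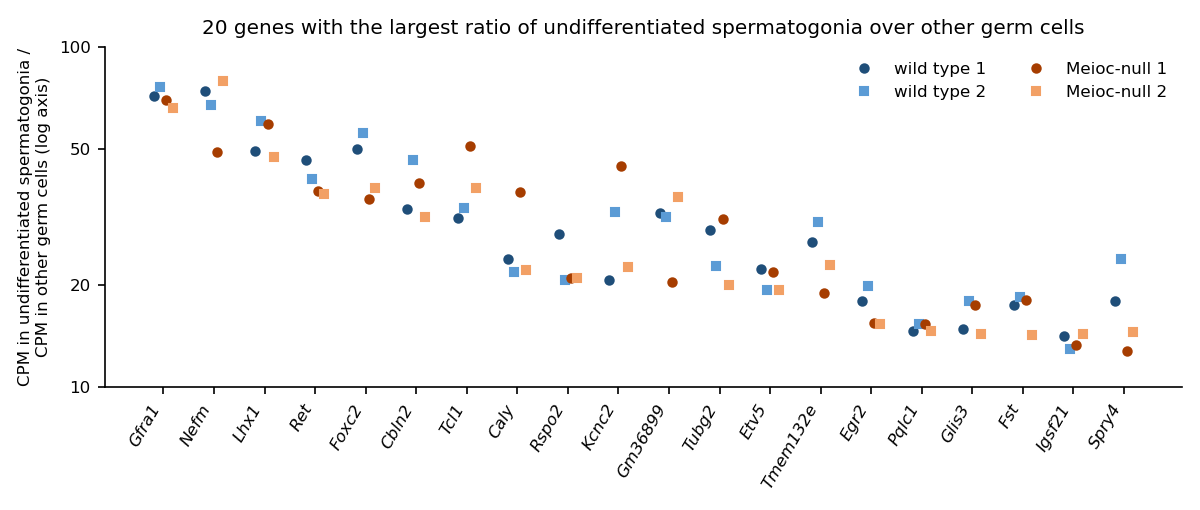
Ratio of CPM in undifferentiated spermatogonia over CPM in the other germ cells (log axis) for the 20 genes with the largest ratio in their lowest library, with 1 point per library. *Gfra1* (66.2 to 76.3), *Ret* and *Etv5* were part of the selection, and the other genes were not.

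Genes of the GDNF pathway were found at every step from receptor to target. Of 19 measured pathway genes other than the selection genes, 15 exceeded the other germ cells more than 2-fold in all libraries. The co-receptor paralogs were low, at 0.512 to 1.15 CPM for *Gfra2* and 2.16 to 2.74 CPM for *Gfra3*. *Sdc4*, which encodes the heparan sulphate proteoglycan syndecan 4, stood at 630, 481, 560 and 473 CPM against 71.0 to 88.7 CPM in other germ cells. Among the transcription factors, *Lhx1* stood at 39.3, 37.3, 39.8 and 27.5 CPM, *Bcl6b* at 18.6, 16.6, 19.3 and 16.0 CPM, and *Egr4* at 192, 153, 161 and 170 CPM. The cyclin D2 gene *Ccnd2* lay between 421 and 456 CPM, against 44.8 to 67.1 CPM in other germ cells. Feedback inhibitors of receptor tyrosine kinase signalling were also present, with *Dusp6* at 43.2 to 48.9 CPM and *Spry4* at 13.5 to 15.4 CPM.

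Regulators of the stem state were mixed. Leaving out *Upp1*, *Id4* and *Zbtb16*, whose excess the selection fixes, 17 of 26 exceeded the other germ cells more than 2-fold in all libraries (663 of the 8466 detected genes did). *Trim71*, an RNA-binding repressor of stem cells, stood at 265, 238, 290 and 218 CPM (ratio 4.31 to 6.47), *Sall4*, a zinc finger partner of PLZF, at 136, 137, 174 and 135 CPM, and *Sox4* at 283 to 325 CPM. By contrast *Dmrt1*, a regulator of the switch from mitosis to meiosis, was about as high in the other germ cells (ratio 0.939 to 1.15), and *Uchl1*, a deubiquitinase often used as a marker of undifferentiated cells, had a ratio of only 1.33 to 1.60. Genes reported in rare stem cell subsets were sparse: *Nanos2*, a translational repressor, stood at 5.01 to 7.67 CPM, *Eomes* at 8.90 to 13.9 CPM, *Pax7* at 2.05 to 2.98 CPM and *Shisa6* at 1.13 to 3.29 CPM. All 4 exceeded their level in other germ cells in each library, by at least 3.51-fold. After every cell was thinned to 5000 UMIs, *Nanos2* was seen in 2.49 to 5.02% of cells and *Pax7* in 0.712 to 2.01%. *Shisa6* was seen in 2.74, 1.53, 2.01 and 0% of undifferentiated spermatogonia against 0.459, 1.95, 0 and 2.27% of Sertoli-like cells, and was lower in both replicates numbered 2. Unthinned, its share was 8.22, 5.70, 4.70 and 2.84% against 3.30, 3.41, 1.20 and 3.14%, lower only in *Meioc*-null replicate 2. The thinned shares of 0% allow up to 1.30 and 1.52% (95% Clopper-Pearson bounds, 0 of 281 and 0 of 241 cells). These bounds hold at 5000 UMIs per cell and do not limit the share at full depth.

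Of the surface proteins, 10 of 16 exceeded other germ cells more than 2-fold in all libraries (663 of the 8466 detected genes did). These included the laminin receptor subunit *Itga6* (64.7, 53.2, 65.2 and 54.4 CPM; ratio 3.72 to 5.05), the tetraspanin *Cd9* (111 to 135 CPM; ratio 2.43 to 2.83) and the adhesion molecule *Mcam* (84.5 to 128 CPM). *Epcam* and *Itgb1* did not, with ratios of 0.701 to 0.809 and 0.615 to 0.992. Of 24 receptors for niche signals, 6 exceeded other germ cells more than 2-fold in all libraries, beside the same 663 of 8466 detected genes. The 24 summed to 486 to 585 CPM against 491 to 722 CPM. Among them *Igf1r* was measured at 161, 126, 171 and 133 CPM (ratio 2.10 to 3.01) and *Lifr*, the receptor of leukaemia inhibitory factor, at 27.0 to 34.7 CPM. *Csf1r*, the receptor of CSF1, was at 0 in 1 library and at most 1.40 CPM in the others.

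The cells also carried genes of the progenitor state. *Sohlh1*, a bHLH factor needed for spermatogonial differentiation, stood at 172, 151, 167 and 163 CPM, *Sox3* at 89.7, 77.3, 72.3 and 69.4 CPM and *Nanos3*, an RNA-binding protein, at 71.1, 56.5, 61.3 and 64.7 CPM. At 5000 UMIs per cell, *Sohlh1* was seen in 46.2 to 49.3% of cells, *Sox3* in 20.6 to 26.5% and *Nanos3* in 18.3 to 26.0%. *Neurog3*, another progenitor factor, was at 5.12 to 7.05 CPM. The differentiation receptor *Kit* stood at 18.2, 27.0, 36.5 and 28.3 CPM, against 105 to 146 CPM in other germ cells. Its thinned share, 7.31, 8.78, 12.8 and 8.90% of cells, was above that of Sertoli-like cells (5.05, 6.83, 4.56 and 7.27%) by less than 3 percentage points in 3 of the libraries. Unthinned, it was 28.3, 31.6, 34.9 and 30.5% against 7.78, 7.39, 6.81 and 11.6% of the shallower Sertoli-like cells. The part of free RNA in these *Kit* shares was not tested.

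A UMI of *Kit* or *Stra8* split the selected cells. After thinning to 5000 UMIs, 357 of 1060 cells held a UMI of *Kit* or *Stra8*: 26.9, 29.0, 43.3 and 33.1% by library. As means over the 4 libraries, those cells had 33.1 ± 4.83 CPM of *Lhx1* (SD, n = 4 libraries) against 53.4 ± 9.93 CPM in the 703 cells without, and were lower in every library. Other GDNF pathway genes did not all follow *Lhx1*. *Egr4* stood at 176 ± 37.0 against 146 ± 16.5 CPM, higher in every library. *Ccnd2* stood at 489 ± 28.8 against 483 ± 7.07 CPM and *Bcl6b* at 15.5 ± 12.9 against 19.0 ± 4.08 CPM. *Sohlh1* stood at 180 ± 31.8 against 130 ± 4.74 CPM and was higher in the cells with *Kit* or *Stra8* in every library. *Top2a*, the DNA topoisomerase of S and G2/M phase, stood at 425 ± 91.1 CPM in the cells with *Kit* or *Stra8* and 304 ± 30.2 CPM in those without, and the order was turned in wild type replicate 1. Before thinning, the cells with *Kit* or *Stra8* had median depths of 28651 to 39861 UMIs and the others 23473 to 28828 UMIs, and the part of this depth gap in the values was not tested.

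A second split followed the number of selection genes. *Lhx1* stood at 30.1 ± 20.0 CPM in cells with 4 of the 6 genes, 66.9 ± 11.6 CPM in cells with 5 and 15.0 ± 11.3 CPM in cells with all 6 (SD, n = 4 libraries, thinned counts). *Sox3* and *Nanos3*, progenitor genes, were highest on average in the cells with 4 genes, at 94.5 ± 22.4 and 78.4 ± 10.5 CPM, against 51.3 ± 9.51 and 51.4 ± 8.45 CPM with 5. The summed CPM of 53 G2/M genes went from 6575 ± 144 to 7532 ± 396 and 8800 ± 606 with 4, 5 and 6 genes. The cells with all 6 were also the deepest, with medians of 32005 to 40831 UMIs. Across cells within a library, the summed S phase and G2/M genes correlated with Pearson's r of 0.496 to 0.555 (Spearman's rho of 0.521 to 0.598) over 219, 262, 298 and 281 cells of shared library and equal depth.

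Cell cycle and metabolic genes set these cells apart from the other germ cells by smaller ratios. The summed CPM of the G2/M genes was 7968 to 8833, against 11342 to 12474 in other germ cells, and that of 44 S phase genes 5163 to 6145 against 6204 to 7570. *Mki67*, a nuclear proliferation marker, stood at 160, 183, 253 and 191 CPM in undifferentiated spermatogonia. Glycolytic genes summed to 1886 to 2156 CPM against 1233 to 1593 CPM, with *Eno1* (enolase), *Pkm* (pyruvate kinase) and *Gpi1* (glucose phosphate isomerase) at ratios of 2.22 to 2.77, 1.94 to 2.89 and 1.85 to 2.26. The 13 protein-coding genes of the mitochondrial genome summed to 66309 to 73125 CPM against 62538 to 68729 CPM, under the same limit on mitochondrial UMIs for all cells.

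Markers of somatic cells were low but not absent. The 6 Sertoli markers summed to 102, 132, 118 and 90.1 CPM, lower than in other germ cells (256 to 335 CPM) in each library and far below the Sertoli-like cells (2989 to 5434 CPM), and 107 of the 1062 cells held at least 3 of the 6. The Leydig list summed to 44.2, 33.1, 41.1 and 87.5 CPM. Its highest value, in *Meioc*-null replicate 2, went with *Insl3*, a Leydig cell hormone, at 22.7 CPM against at most 0.509 CPM elsewhere, while the steroid enzyme gene *Cyp17a1* was at 0 in both wild-type libraries. The myoid list was also highest in *Meioc*-null replicate 2 (137, 83.8, 123 and 241 CPM), as was the endothelial list (30.5, 36.3, 37.5 and 62.5 CPM). Macrophage markers summed to 2.03 to 4.91 CPM in 3 libraries and 34.5 CPM in wild type replicate 2, where *Lyz2* (lysozyme) was at 24.6 CPM. The part of these cells in the genotype values was not tested.

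The share of germ cells that were undifferentiated spermatogonia was 4.49% (95% Clopper-Pearson interval 3.93 to 5.11), 3.72% (3.29 to 4.19), 5.00% (4.46 to 5.59) and 4.96% (4.41 to 5.56). These intervals cover counting error only. Both *Meioc*-null libraries lay above both wild-type libraries, at 4.98% ± 0.0286 against 4.11% ± 0.544 (SD, n = 2). The difference of 0.875 percentage points had a 2-sided exact permutation p of 0.333, the smallest that 2 against 2 samples allow, and was 0.510 points in batch 1 and 1.24 points in batch 2. Without wild type replicate 2 it was 0.490 points. Over all cells that passed the quality limits the difference was 0.651 points, and under a mitochondrial limit of 5%, which left 18, 29, 6 and 28 undifferentiated spermatogonia, it was -0.158 points (-0.673 in batch 1). Over germ cells this limit gave 0.440 points (-1.09 in batch 1). When the selection was applied to cells thinned to 5000 UMIs, with shallower cells left out, 25 to 33 cells per library met it and the difference was 0.00522 points, and at 10000 UMIs it was 0.179 points. The cause of these moves was not tested.

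**Figure D2:**
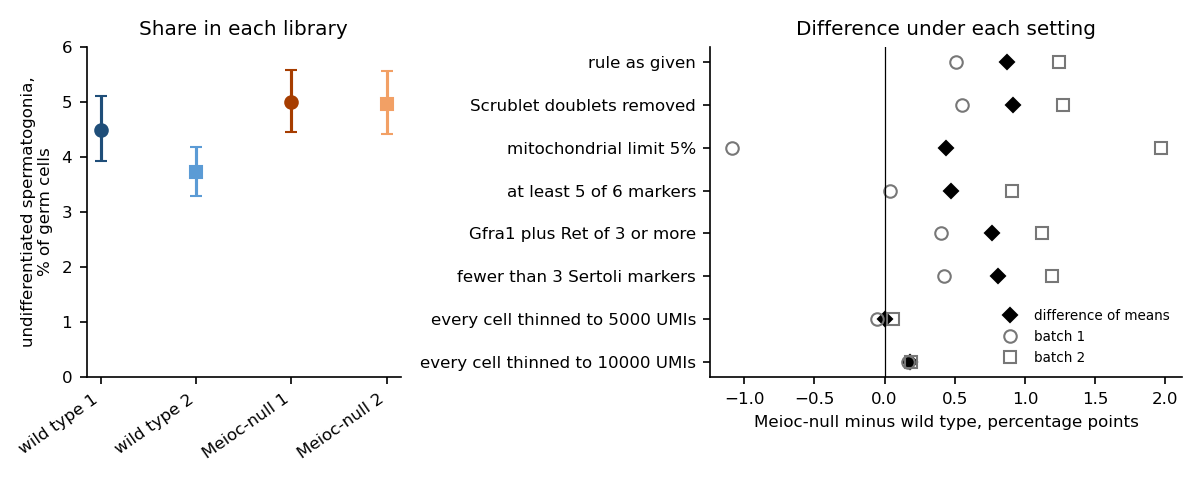
Undifferentiated spermatogonia as a percentage of germ cells in each library, with 95% Clopper-Pearson intervals (left), and the difference *Meioc*-null minus wild type in percentage points under each setting (right; diamonds, difference of means; open circles and squares, batches 1 and 2). The *Meioc*-null libraries (5.00 and 4.96%) lie above the wild-type libraries (4.49 and 3.72%), and the difference comes to 0.00522 points at 5000 UMIs per cell and 0.179 points at 10000.

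Few genes were called between genotypes in undifferentiated spermatogonia. With 2 libraries a genotype, an uncalled gene is not shown to be alike in both. Counts were summed over the cells of each library and tested with edgeR's quasi-likelihood test, with log2 fold changes given as wild type over *Meioc*-null. A gene was called at a Benjamini-Hochberg adjusted p under 0.05 and a log2 fold change beyond 0.1 in size. Of 8631 genes detected in 25% or more of the cells of either genotype, 5 were called (0.0579%), of which 4 favoured wild type and 1 *Meioc*-null, while 146 had an unadjusted p under 0.05. The CPM ranges of the genotypes did not overlap for 1913 genes (22.2%). Through 1 genotype alone 81 genes (wild type) and 248 genes (*Meioc*-null) had passed this limit on detection, and 3 of the 4 genes called in favour of wild type were among the 81. With the littermate pair as a block, 33 genes were called (0.382%), 23 of them higher in wild type, and these included all 5. The 23 included *Ldhc*, *Ybx2*, *Tesmin*, *Fabp9*, *Meig1* and *Rsph1*, which had passed the limit on detection only through wild type. Nothing is therefore read from the balance of directions with the block. The balance of directions moved with the cells kept. Without doublets scored by Scrublet 2 genes favoured wild type and 3 *Meioc*-null, with 2 shared with the 5, and under the 5% mitochondrial limit 2 genes favoured wild type and 11 *Meioc*-null, with 1 shared. The 11 included *Col4a1*, *Mylk*, *Flna* and *Tpm1*, genes of contractile and vascular cells. They also included *Cd93*, which stood at 9.80 to 31.5 times its level in other germ cells in undifferentiated spermatogonia. *Fos* and *Junb* were among the 13 genes called as well. Of the *Meioc*-null cells under this limit, 28 came from replicate 2, the library with the highest myoid and endothelial sums, and 6 from replicate 1. The part of contractile and vascular cells in these calls was not tested. Without wild type replicate 1 the unblocked test called 28 genes, without wild type replicate 2 it called 19, and without either *Meioc*-null library it called 7. In these fits 1 genotype has a single library, so the spread comes from the pair of the other genotype alone.

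The gene higher in *Meioc*-null was *Stra8* (chr6:34920163-34939344, plus strand), the retinoic acid response gene that licenses meiotic entry. *Stra8* was measured at 99.6, 126, 214 and 167 CPM, so that both *Meioc*-null libraries exceeded both wild-type libraries. The log2 fold change was -0.74 (SE 0.13; edgeR adjusted p = 0.0416), and it was -1.07 in batch 1 and -0.43 in batch 2. In UMIs per cell *Stra8* was at 2.90, 3.75, 6.04 and 5.77, against 0.123, 0.0881, 0.347 and 0.215 in Sertoli-like cells. At 5000 UMIs per cell it was seen in 22.8, 22.9, 36.6 and 28.1% of undifferentiated spermatogonia and in 3.21, 3.41, 9.13 and 6.36% of Sertoli-like cells (difference between genotypes of -9.48 percentage points; 2-sided exact permutation p = 0.333, adjusted p = 1 over 15 genes). The call was lost without wild type replicate 1 (-0.56, adjusted p = 0.471), without *Meioc*-null replicate 1 (-0.60, adjusted p = 0.331), when cells with 3 or more Sertoli markers were left out (-0.70, adjusted p = 0.164), in the cells with at least 5 of the selection genes (-0.74, adjusted p = 1.000), and over genes in at least 10% of cells (-0.74, adjusted p = 0.0708). Under a mitochondrial limit of 5% the value was -0.15 (adjusted p = 0.999). The Sertoli-like share of *Stra8* moved with genotype as well, and its part in the result was not tested.

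The other 4 called genes were higher in wild type. *Ldhc* (chr7:46861203-46878142, plus strand), the lactate dehydrogenase of spermatocytes and sperm, stood at 20.4, 13.9, 4.41 and 3.68 CPM (log2 fold change 2.08, SE 0.24, edgeR adjusted p = 9.45e-05). *Ybx2* (chr11:69935796-69941605, plus strand), a Y-box protein that binds mRNA in meiotic and later germ cells, stood at 18.8, 13.9, 5.48 and 3.58 CPM (log2 fold change 1.86). *Tesmin* (chr19:3388857-3407823, plus strand), a CXC-domain protein of spermatocytes, stood at 15.5, 20.8, 4.17 and 5.93 CPM (log2 fold change 1.84). For all 3 the genotypes were apart in both batches. All 3 were tested because of wild type: they were detected in 31.3, 28.2 and 25.9% of wild-type cells and in 11.6, 11.7 and 11.6% of *Meioc*-null cells, so that they passed the limit of 25% only through the genotype in which they were high. *Gm884* (chr11:103534577-103621140, minus strand), a predicted gene, stood at 41.3, 39.1, 21.6 and 24.6 CPM (log2 fold change 0.80, SE 0.15, edgeR adjusted p = 0.0465), and was detected in 63.9 and 46.0% of the cells of the genotypes. Its call was lost with DESeq2 (0.81, adjusted p = 0.105), without *Meioc*-null replicate 1 (0.67, adjusted p = 0.333), in cells with at least 5 selection genes (0.75, adjusted p = 0.534), without cells of 3 or more Sertoli markers (0.78, adjusted p = 0.164), over genes in at least 10% of cells (0.80, adjusted p = 0.0727) and under the 5% mitochondrial limit (0.46, adjusted p = 0.999).

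The counts of *Ldhc*, *Ybx2* and *Tesmin* were low, and the same RNAs were found in cells that should lack them. *Ldhc* averaged 0.594, 0.414, 0.124 and 0.128 UMIs per undifferentiated spermatogonium, and 0.316, 0.0824, 0 and 0.00242 in Sertoli-like cells, which should lack it. In wild type replicate 2, 5 cells held 48.6% of the *Ldhc* UMIs, with 44 UMIs in 1 cell, while *Ldhc* was found in 42.9, 21.7, 11.7 and 11.3% of cells. The 5 highest cells of the same library held 46.8% of the *Ybx2* UMIs and 53.4% of the *Tesmin* UMIs. In wild type replicate 1 the 5 highest cells held 13.8% of the *Ldhc*, 14.2% of the *Ybx2* and 22.2% of the *Tesmin* UMIs. Without doublets scored by Scrublet, which took out 15, 37, 21 and 31 undifferentiated spermatogonia, *Ldhc* and *Ybx2* were no longer called (log2 fold changes 1.76 and 1.81, adjusted p = 0.315 and 1.000), and *Tesmin*, in 22.1 and 8.52% of the cells of the genotypes, was no longer tested. The part of free RNA and doublets in these values was not tested. *Gm884* differed in this respect, at 1.21, 1.17, 0.607 and 0.851 UMIs per undifferentiated spermatogonium and at most 0.0354 in Sertoli-like cells. The Sertoli-like cells were chosen for few *Ddx4* and *Dazl* UMIs, so they may understate free RNA from germ cells.

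**Figure D3:**
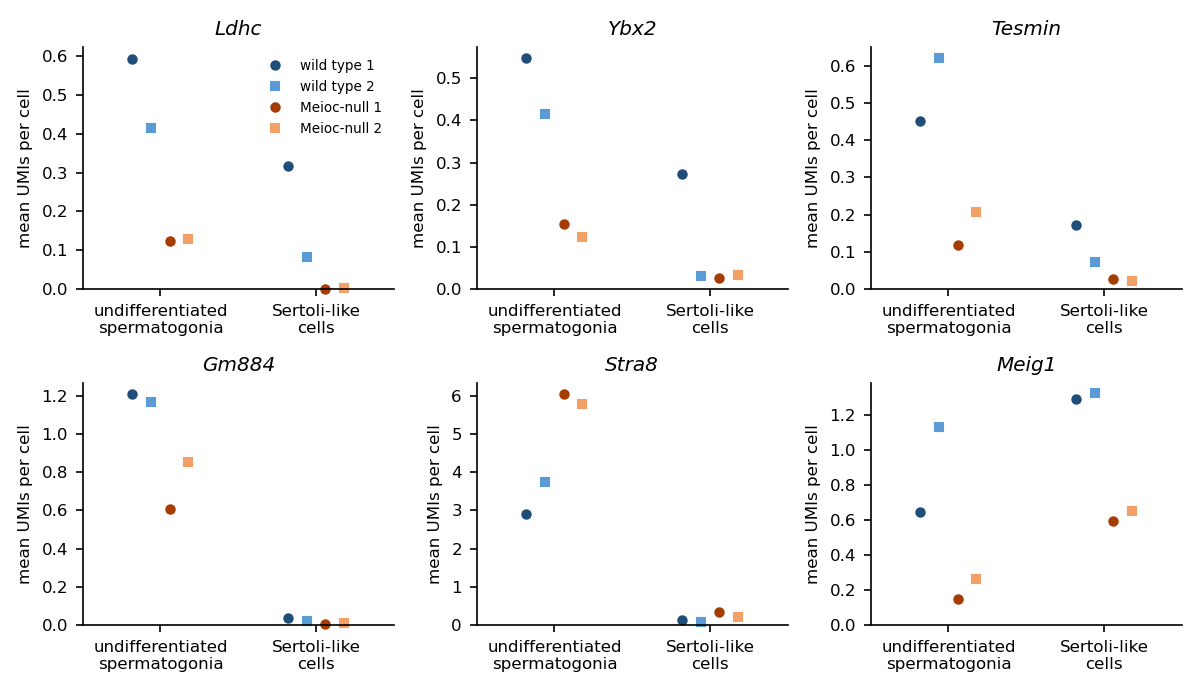
Mean UMIs per cell, from 0, of the 5 genes called between genotypes and of *Meig1*, with 1 point per library, in undifferentiated spermatogonia and in Sertoli-like cells. *Stra8* (2.90, 3.75, 6.04 and 5.77) and *Gm884* are near 0 in Sertoli-like cells, while *Meig1* is higher there (1.29, 1.33, 0.597 and 0.655) than in undifferentiated spermatogonia.

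Calls of other spermatocyte genes changed with the fit. *Meig1*, a gene of meiosis and spermiogenesis, stood at 22.2, 37.9, 5.24 and 7.57 CPM (log2 fold change 2.23, edgeR adjusted p = 0.0545), *Rsph1*, a radial spoke gene, at 23.0, 41.0, 10.0 and 8.90 CPM (1.78, adjusted p = 0.0616), and the PIWI gene *Piwil1* at 26.9, 18.6, 13.8 and 9.11 CPM (1.00, adjusted p = 0.129). *Meig1* (39.0 and 16.2% of the cells of the genotypes) and *Rsph1* (38.0 and 21.7%) were, like *Ldhc*, tested only because of wild type. *Meig1*, *Rsph1* and *Piwil1* were called with the littermate pair as a block, and *Meig1* and *Rsph1* also with DESeq2 and without cells of 3 or more Sertoli markers. *Fabp9*, a fatty acid binding protein gene of the same list that was likewise tested only because of wild type, stood at 15.0, 29.5, 3.58 and 5.73 CPM (2.26, adjusted p = 1.000) and was called with the block and with DESeq2, and in wild type replicate 2, 5 cells held 79.3% of its UMIs (133 UMIs in 1 cell). In Sertoli-like cells *Meig1* averaged 1.29, 1.33, 0.597 and 0.655 UMIs per cell, more than the 0.648, 1.13, 0.148 and 0.262 in undifferentiated spermatogonia. The Sertoli-like cells were the shallower ones, so they are not taken as a measure of free RNA for *Meig1*. In wild type replicate 2, 5 cells held 65.8% of the *Meig1* UMIs (97 UMIs in 1 cell) and 64.0% of the *Rsph1* UMIs. In wild type replicate 1 the 5 highest cells held 13.4% of the *Meig1*, 17.0% of the *Rsph1* and 12.5% of the *Fabp9* UMIs. Without doublets scored by Scrublet the log2 fold changes of *Meig1* and *Rsph1* were 1.47 (edgeR adjusted p = 0.315) and 0.97 (adjusted p = 0.111). Over the pachytene list, 9 of 14 genes were tested, of which 5 had passed the limit on detection only through wild type, so no median is given and nothing is read from its counts. For description, 2 were called (*Ldhc* and *Tesmin*; 0.0579% of all tested genes), 7 with the block (0.382%), and 8 of the 9 values were positive, with a lowest of -0.06. Of 14 tested genes of the early meiotic list, 8 had a positive value, against 49.4% of all tested genes, and the range was -0.43 to 0.43.

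The other uncalled genes of smallest p with 1 direction in both batches were *Spata7*, *Ybx3*, *Wtip*, *Mpv17l*, *Hspa2*, *Dut* and *Ier5l*, and the block called all of them. *Spata7*, a cilium protein gene, stood at 98.7, 66.2, 52.6 and 47.3 CPM (log2 fold change 0.72, edgeR adjusted p = 0.133). It was called without Scrublet doublets (0.74, adjusted p = 0.00524) and was -0.74 under the 5% mitochondrial limit (adjusted p = 0.999), and 5 cells held 31.7 to 50.2% of its UMIs in each library. The Y-box gene *Ybx3* stood at 47.1, 48.8, 36.2 and 26.6 CPM (0.63, adjusted p = 0.301) and the LIM domain gene *Wtip* at 49.8, 51.7, 39.6 and 26.3 CPM (0.64, adjusted p = 0.350). *Mpv17l* stood at 91.0, 62.6, 56.8 and 43.6 CPM (0.62, adjusted p = 0.771) and was -0.52 under the 5% mitochondrial limit. The chaperone gene *Hspa2*, of which pups of both genotypes carried an altered copy, stood at 17.4, 27.2, 14.2 and 12.2 CPM (0.78, adjusted p = 0.771), and *Ier5l* at 20.4, 27.5, 17.5 and 12.2 CPM (0.72, adjusted p = 0.841). Wild type was higher than *Meioc*-null in both batches for these genes other than *Dut*.

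Lists of genes known from undifferentiated spermatogonia held no call, which with 0.0579% of all tested genes called is no result about these lists. Apart from the selection genes, the median log2 fold change was 0.07 over 12 tested genes of the GDNF pathway (range -0.08 to 0.20), -0.02 over 18 stem cell regulators (-0.23 to 0.11), 0.03 over 10 surface genes, -0.07 over 12 niche receptors and 0.02 over 7 progenitor genes, against -0.0019 over all genes tested. Neither the block fit nor DESeq2 called any of them, and at an unadjusted edgeR p under 0.05 stood 1, the niche receptor *Kit*. The selection genes, whose levels the selection constrains, are given as levels with no test. *Id4* stood at 78.6, 90.7, 64.2 and 73.0 CPM and *Ret* at 105, 85.1, 100 and 80.9 CPM. *Gfra1* stood at 97.6, 90.5, 110 and 83.0 CPM and *Zbtb16* at 190, 161, 238 and 174 CPM. Of the 6 selection genes the CPM ranges of the genotypes were apart for *Id4* alone, with both wild-type libraries above both *Meioc*-null libraries. Over all tested genes they were apart for 22.2%, so nothing is read from this.

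*Stra8*, which is in both the differentiating and the retinoic acid list, was the 1 gene called in them, where 0.0579% of all tested genes were called. The median log2 fold change was -0.10 over 12 tested genes of the differentiating list and -0.11 over 11 of the retinoic acid list. *Kit* was lowest in wild type replicate 1 (-0.49, SE 0.18, edgeR adjusted p = 1.000; adjusted p = 0.0599 with the block). The retinoid-binding gene *Crabp1* stood at 115, 126, 133 and 126 CPM (-0.10), and the receptor *Rara* at 25.8, 25.8, 24.5 and 24.8 CPM (0.07). *Meioc* and its RNA-binding partners *Ythdc2* (29.6, 42.7, 45 and 40.1 CPM) and *Rbm46* (102, 122, 116 and 126 CPM) were uncalled, with log2 fold changes of -0.04, -0.22 and -0.11. The 8 repressors named by the study were uncalled too, from -0.15 for *Rad21* (cohesin) to 0.02 for *Cbx1* (a heterochromatin protein).

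Proliferation genes had medians below 0 and no call. Of 43 tested S phase genes, 9 had a positive log2 fold change and the median was -0.11, and of 52 tested G2/M genes 14 did and the median was -0.07. Over all tested genes 49.4% had a positive value. At an unadjusted edgeR p under 0.05 stood 3 S phase and 4 G2/M genes, against 1.69% of all tested genes, and DESeq2 called none of either list. The S phase sum was 5222, 5192, 6145 and 5163 CPM, so that *Meioc*-null replicate 1 was the high library and *Meioc*-null replicate 2 lay below both wild-type libraries. *Mki67* had a log2 fold change of -0.36 (SE 0.13, edgeR adjusted p = 1.000) and was called with the littermate pair as a block, as were *Dut* (dUTPase, -0.44, at 155, 172, 217 and 226 CPM, edgeR adjusted p = 0.833 without the block) and *Fos*. Under the 5% mitochondrial limit *Dut* was at 0.19 (adjusted p = 0.999). Glycolytic genes had a median of 0.01 over 17 tested genes, mitochondrial genes -0.07 over 13 and early meiotic genes 0.02 over 14, with no call in any of these lists by edgeR or DESeq2 and no unadjusted edgeR p under 0.05.

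**Figure D4:**
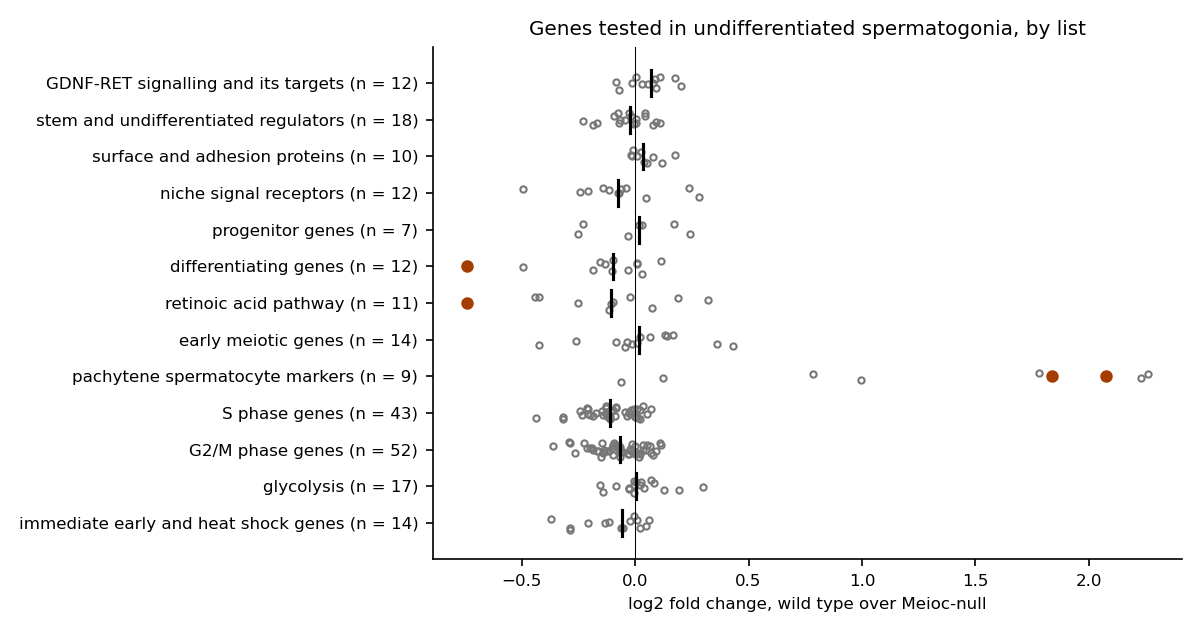
Log2 fold change, wild type over *Meioc*-null, of each tested gene in undifferentiated spermatogonia for the lists named on the vertical axis (somatic markers, MEIOC partners, the 8 repressors and the mitochondrial genes among others are not drawn), without the selection genes, with filled points for called genes and a vertical bar at the median of each list other than the pachytene list. The medians drawn lie from -0.11 to 0.07, and 5 of the 9 pachytene genes passed the limit on detection only through wild type.

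**Figure D5:**
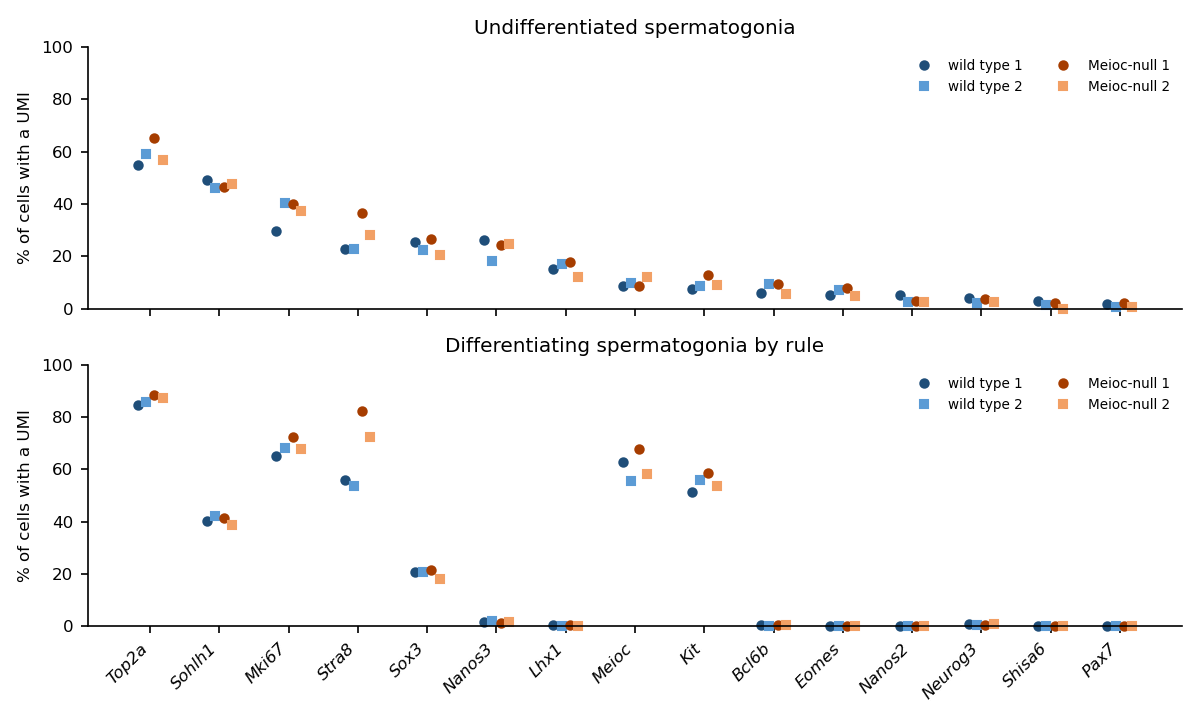
Percentage of undifferentiated spermatogonia with a UMI of each gene after every cell was thinned to 5000 UMIs, with 1 point per library (top), and the same in differentiating spermatogonia (bottom). *Stra8* was seen in 22.8, 22.9, 36.6 and 28.1% of undifferentiated and 55.9, 53.7, 82.4 and 72.2% of differentiating spermatogonia, and *Lhx1* in 12.1 to 17.8% and at most 0.384%. The differentiating class left out cells with 2 or more UMIs of *Gfra1* and *Ret* together, and is named by its rule, which did not leave out spermatocytes.

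Of the 15 genes compared as thinned shares, none could pass with 2 libraries a genotype (adjusted p = 1 for each). *Top2a* was seen in 54.8, 59.2, 65.1 and 56.9% of cells and *Mki67* in 29.7, 40.5, 39.9 and 37.4%, with the genotypes overlapping for both. *Lhx1* was seen in 15.1, 17.2, 17.8 and 12.1% and *Meioc* in 8.68, 9.92, 8.72 and 12.1%.

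Differentiating spermatogonia were fitted in the same way for comparison. They were germ cells with at least 4 of 7 differentiation genes. They also had fewer than 4 of the 6 selection genes and under 2 UMIs of *Gfra1* and *Ret* together. They numbered 12548 cells. The class is named by this rule, which did not leave out spermatocytes. In it the early meiotic list summed to 4498, 4328, 4707 and 4104 CPM, against 1608 to 2220 CPM in undifferentiated spermatogonia. The pachytene list summed to 1408, 899, 258 and 265 CPM in the differentiating class. Of the undifferentiated spermatogonia 446 also held 4 or more of the 7 genes, but no cell was in both classes. In this class 58 of 7569 genes were called (0.766%), 46 of them higher in wild type, and 102 and 113 were called without wild type replicate 1 and 2. Its sums held 60807218 to 80803568 UMIs per library, against 6385666 to 9772784 in undifferentiated spermatogonia. The counts of calls are therefore not set against each other. With the littermate pair as a block the calls in the differentiating class came to 541 in favour of wild type and 694 in favour of *Meioc*-null (16.3% called). *Stra8* was called there as well, at 439, 410, 1005 and 750 CPM (log2 fold change -1.0, edgeR adjusted p = 0.0243). The difference between its genotype effects in the 2 classes was 0.25 (SE 0.11, edgeR adjusted p = 0.454) and was not called.

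The genotype effect differed between the classes for 38 of 7256 genes (0.524%), 27 of which had the lower log2 fold change in undifferentiated spermatogonia. *Piwil1* had a log2 fold change of 1.00 in undifferentiated spermatogonia and 3.41 in differentiating spermatogonia, and *Gm884* 0.80 and 2.16. *Gm884* was called in each class and *Piwil1* in neither (edgeR adjusted p = 0.129 and 0.147). In the differentiating class *Gm884* stood at 20.5, 20.3, 4.38 and 4.99 CPM and *Piwil1* at 86.4, 35.5, 6.16 and 5.53 CPM. Both were too sparse in the *Meioc*-null cells of that class to reach the 25% limit, so they entered it only through wild type. Nothing is read from their differences between classes or from the *Gm884* call in that class. *Tdrd1*, a Tudor protein of the piRNA pathway, had -0.16 and 0.51, called in neither (edgeR adjusted p = 1.000 and 0.0621), with 114, 96.9, 130 and 108 CPM in undifferentiated spermatogonia. *Hif1a*, the oxygen-responsive transcription factor, had -0.08 and -0.62, at 69.8, 72.7, 82.1 and 70.1 CPM in undifferentiated spermatogonia. *Psma8*, the spermatocyte proteasome subunit, had 0.06 and 1.60, and its CPM in undifferentiated spermatogonia was even, at 41.3, 41.1, 38.5 and 40.6. The differentiating class was not limited to 1 stage in either genotype. In wild type its *Ldhc* reached 213 and 73.9 CPM against 0.718 and 0.569 CPM in *Meioc*-null. The stage makeup of the class and its genotype effect cannot be told apart.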

How the data were processed

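The authors deposited raw UMI counts per gene and barcode, made with Cell Ranger 4.0.0 against mm10 (GRCm38), with no normalization. Per the labels, replicate numbers were batches of 1 littermate pair, so the block fit is paired by design. The deviations of same-numbered libraries from their genotype means had r = 0.362, a single value, since with 2 libraries a genotype both pairs give the same number.

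The cells and the gene lists were chosen with earlier results of these data known. Counts were summed per library and class and tested with edgeR 4.0.16 (R 4.3.3; TMM, robust quasi-likelihood fit, Benjamini-Hochberg), with genotype as the term, on genes detected in 25% or more of either genotype's cells. The difference between classes was fitted with library as a block. DESeq2 1.42.0 was an alternative. Scrublet (scanpy 1.11.5) scored doublets at a rate of 0.8% per 1000 cells that passed the quality limits. The highest-scored 321, 577, 456 and 416 cells by library were taken as doublets to match this rate. Scrublet's own threshold would have called 1.77, 4.78, 2.72 and 4.06% of cells. Shares were compared on cells thinned to 5000 UMIs, which left out 0, 1, 0 and 1 selected cells and 206, 147, 258 and 194 Sertoli-like cells. Ratios used 1 added UMI. Coordinates came from GENCODE vM21 (32158 of 32285 gene IDs matched). Scripts were tested on simulated data.

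Genes named were those called, the 10 uncalled genes of smallest p with 1 direction in both batches, the selection genes, *Meioc* and its partners, the 8 repressors, the 6 highest genes of each list and the 20 largest ratios. Others were named after their values were seen. Each pup was 1 replicate.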

Additional observations from a re-analysis of the deposited data

Results flagged for a closer look

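For 4 of the genes named by rule the genotype effect differed between undifferentiated and differentiating spermatogonia, by a test of the difference itself (edgeR, library as a block). As the log2 fold change in undifferentiated minus that in differentiating spermatogonia, the difference was -1.36 for *Gm884*, -2.32 for *Piwil1* and -0.66 for *Tdrd1*. It was 0.54 for *Hif1a*, and -1.52 for *Psma8*, which was named outside that rule. *Gm884* and *Piwil1* passed the limit on detection in the differentiating class only through wild type, so nothing is read from their values. With 2 libraries in each genotype, samples were not tested as outliers.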

How the results depend on the processing

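The count of genes called by genotype in undifferentiated spermatogonia, 5, became 33 with the replicate block, 3 with genes in at least 10% of cells, 78 with no filter on low counts, 13 under the 5% mitochondrial limit, 3 in cells with at least 5 selection genes and 7 to 28 with 1 library left out. In differentiating spermatogonia the count of 58 became 1235 with the block and 44 to 113 with 1 library left out. The share difference over cells that passed the quality limits, 0.651 points, became -0.158 under the 5% mitochondrial limit, 0.351 with at least 5 selection genes, 0.00295 thinned to 5000 UMIs and 0.174 thinned to 10000. Over germ cells it became 0.00522 and 0.179 when thinned. Unthinned share differences, wild type minus *Meioc*-null, were -16.3 points for *Stra8*, 2.83 for *Top2a*, 3.21 for *Nanos2*, -3.56 for *Bcl6b*, 1.09 for *Pax7* and 3.19 for *Shisa6*. The cause of these moves was not tested. Of the 5 genes called, none reversed. *Ldhc*, *Ybx2* and *Tesmin* passed the limit on detection only through wild type, where they were high, so their counts of calls are no measure of stability. *Tesmin* was called in the 11 settings that tested it and fell below the limit on detection in the other 3 (without Scrublet doublets, the 5% mitochondrial limit, fewer than 3 Sertoli markers). *Ldhc* was called in 13 of 14, *Ybx2* in 12, and *Stra8* and *Gm884* in 8. The alternatives without cells holding 3 Sertoli markers and at 10000 UMIs were chosen after seeing the data.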
